A study of Mus musculus with 36 samples.

Results

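Box H/ACA small nucleolar RNAs (snoRNAs) were followed across RNA-seq libraries of N2a cells, a mouse neuroblastoma line, that carried RfxCas13d or its catalytically dead form dRfxCas13d. The entries were chosen by symbol and level: of the 25239 entries of the expression table, 36 have a symbol of the form Snora plus a number, and 31 were kept, those whose FPKM (fragments per kilobase of exon, scaled to library depth) reached 1 in 2 or more of the 36 libraries. The other 5, Snora19, Snora24, Snora26, Snora35 and Snora36b, were at 0 in every library. Just inside the filter, by the second highest FPKM over the libraries, lay Snora47 at 1.82, Snora74a at 3.68 and Snora69 at 4.91, whereas the entries just outside it were at 0. All of the 31 reached the limit in at least 2 RfxCas13d libraries, and 30 of them also did so in at least 2 dRfxCas13d libraries, the exception being Snora47.

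The RNA-seq tested whether RfxCas13d, an RNA-guided RNA nuclease, changes transcripts other than its target in these cells. Plasmids for RfxCas13d or dRfxCas13d were transfected together with 1 of 7 targeting crRNAs (Rbfox3 crRNA 5, Mapt crRNA 4 or 6, Map2 crRNA 1 or 3, or Sik3-S crRNA 1 or 8), with a non-targeting (NT) crRNA, or without crRNA, which makes 18 groups of 2 libraries each. The labels give the Rbfox3 crRNA as number 5 in the titles and as number 6 in the transfection field. In every group cells positive for GFP were sorted at 48 h, so all cells had taken up plasmid and none was untransfected, and libraries came from a kit for mRNA.

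H/ACA snoRNAs are short nucleolar RNAs that fold into a pair of hairpins, each followed by a conserved motif, the H box in the hinge and the ACA box close to the 3′ end. Base pairing in the hairpins places a uridine of ribosomal or spliceosomal RNA for conversion to pseudouridine by dyskerin (Dkc1), which works in a particle with Nop10, Nhp2 and Gar1. In mammals most are cut out of introns of host genes, often genes for ribosomal proteins or long non-coding host RNAs, and the mature RNA carries no poly(A) tail. In human cells the counterparts of Snora62, Snora64 and Snora65 guide pseudouridylation of large-subunit rRNA, and that of Snora70 guides it in small-subunit rRNA.

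The sequences below are those of the 6 entries called higher with every targeting crRNA, of the entries called with NT crRNA, and of pairs that share a host gene. They were read 5′ to 3′ from the GENCODE vM21 transcripts (mm10), in lower case. Capitals mark the match to the ACA box and, where found, the match to the H box closest to the middle. Snora78 (chr17:24719676-24719803, minus strand), Snora5c (chr11:6620319-6620454, minus strand), Snora52 (chr7:141448803-141448939, plus strand), Snora70 (chrX:74272484-74272620, plus strand), Snora7a (chr6:115807975-115808114, minus strand) and Snora65 (chr2:32963291-32963420, plus strand) are the first set.
Snora78: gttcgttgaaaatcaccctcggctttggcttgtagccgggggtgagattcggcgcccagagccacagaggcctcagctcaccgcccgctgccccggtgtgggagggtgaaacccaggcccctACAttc
Snora5c: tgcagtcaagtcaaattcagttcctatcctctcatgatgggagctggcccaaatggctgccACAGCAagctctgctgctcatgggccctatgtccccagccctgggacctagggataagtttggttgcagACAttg
Snora52: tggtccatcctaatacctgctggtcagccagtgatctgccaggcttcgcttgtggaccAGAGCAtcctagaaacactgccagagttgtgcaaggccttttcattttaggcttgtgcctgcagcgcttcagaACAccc
Snora70: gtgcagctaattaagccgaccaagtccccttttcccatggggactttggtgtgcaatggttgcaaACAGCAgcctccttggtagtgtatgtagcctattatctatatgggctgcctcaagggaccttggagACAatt
Snora7a: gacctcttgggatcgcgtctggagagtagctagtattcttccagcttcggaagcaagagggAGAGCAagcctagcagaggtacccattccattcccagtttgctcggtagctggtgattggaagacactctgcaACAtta
Snora65: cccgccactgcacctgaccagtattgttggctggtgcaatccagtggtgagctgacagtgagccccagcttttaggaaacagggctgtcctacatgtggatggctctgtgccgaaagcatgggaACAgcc

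Snora75 (chr1:86351169-86351301, minus strand) lies in the nucleolin gene Ncl. Snora2b (chr15:98526346-98526482) and Snora34 (chr15:98519716-98519853) lie on the minus strand in Kansl2, a subunit gene of a histone acetyltransferase complex, and Snora17 (chr2:26639190-26639321) and Snora43 (chr2:26637847-26637985) lie on the minus strand in the span of the long non-coding host gene Snhg7. Snora2b and Snora34 were the most alike of 435 pairs aligned, with 68.0% identical positions, and Snora17 and Snora43 followed with 67.8%, against a median of 51.0% over the pairs.
Snora75: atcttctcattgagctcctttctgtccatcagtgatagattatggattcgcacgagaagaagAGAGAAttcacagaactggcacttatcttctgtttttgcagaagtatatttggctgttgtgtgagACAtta
Snora2b: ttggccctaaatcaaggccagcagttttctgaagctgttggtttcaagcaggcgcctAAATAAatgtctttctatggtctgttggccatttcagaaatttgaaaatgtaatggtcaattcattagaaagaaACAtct
Snora34: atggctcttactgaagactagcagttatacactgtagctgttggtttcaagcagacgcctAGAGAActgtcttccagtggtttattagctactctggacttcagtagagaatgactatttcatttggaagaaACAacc
Snora17: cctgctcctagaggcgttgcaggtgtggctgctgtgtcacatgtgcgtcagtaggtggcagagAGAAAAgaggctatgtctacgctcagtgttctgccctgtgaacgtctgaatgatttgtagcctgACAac
Snora43: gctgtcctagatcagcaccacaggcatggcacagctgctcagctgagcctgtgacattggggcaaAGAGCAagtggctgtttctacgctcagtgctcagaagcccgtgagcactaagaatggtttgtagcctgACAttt

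Matches to the motifs of the class were found in most of the sequences behind the symbols. ACA within the last 10 bases was found in 34 of the 36 entries (94.4%), against 9 of 99 box C/D snoRNA sequences (9.09%), the other main snoRNA class. The H box, searched as ANANNA in the middle of the molecule, was found in 33 of 36 entries (91.7%) and in 46 of 99 box C/D sequences (46.5%). A missing match, as for the H box of Snora78 and Snora65, says only that these letters are not in the window searched. The lengths behind the FPKM ran from 61 nt to 198 nt and are those of the RefSeq entries. They are shorter than the GENCODE sequences for several members, such as 118 nt for Snora65 and 62 nt for Snora61. For Snora78 the RefSeq span, chr17:24719676-24719832, is longer than the GENCODE sequence above.

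Marker genes and targeted genes were read first. Summed FPKM of 9 sympathetic neuroblast markers ran from 520 to 692 in the RfxCas13d libraries and from 508 to 614 in the dRfxCas13d libraries. Of these markers 8 passed the filter, the exception being Th, with at most 0.648 FPKM in a library. With their own crRNAs, RfxCas13d libraries held 1.46 to 2.00 FPKM of Sik3, against 15.9 to 17.1 with dRfxCas13d. Map2 was at 0.683 to 0.883 FPKM with RfxCas13d, against 9.91 to 10.9 with dRfxCas13d, and Mapt at 1.99 to 2.60 FPKM with RfxCas13d, against 26.3 to 34.3 with dRfxCas13d. Rbfox3 was at 0.018 and 0.046 FPKM with RfxCas13d, against 0.041 and 0.113 with dRfxCas13d, too low to check. Fragments per library, read from the steps between low FPKM values, ran from 10380000 to 16540000 (median 13425000) in the RfxCas13d libraries and from 8680000 to 12170000 (median 10375000) in the dRfxCas13d libraries, and the part of this depth difference in the results was not tested. With targeting crRNAs, FPKM summed over all entries ran from 388814 to 415089 in RfxCas13d libraries and from 359531 to 373891 in dRfxCas13d libraries. What lies behind this difference was not tested. Of the libraries, 1 stood apart: in RfxCas13d+NT crRNA replicate 1, 12 liver genes summed to 524.6 FPKM, against at most 13.8 in the other libraries. The mean FPKM of the H/ACA entries rests on few fragments: over the 36 libraries a member had a mean of 0.667 to 180 fragments per library (median 11.4), and 14 of the 31 had a mean under 10.

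Together the H/ACA entries stood higher in every RfxCas13d library with a targeting crRNA than in any dRfxCas13d library with one. Their summed FPKM ran from 525 to 799 (median 712) in the 14 RfxCas13d libraries and from 243.6 to 330.4 (median 276.5) in the 14 dRfxCas13d libraries. With NT crRNA the sums were 365.3 and 374.8 in RfxCas13d libraries, against 242.6 and 250.1 in dRfxCas13d libraries. Without crRNA they were 277 and 268.4 in RfxCas13d libraries, against 294.8 and 329.2 in dRfxCas13d libraries. The sums did not overlap between the nucleases in any of the 9 crRNA conditions, and RfxCas13d had the lower ones only where crRNA was left out. Snora65 made up 29.0% ± 2.33 of the sum in RfxCas13d libraries and 26.3% ± 3.30 in dRfxCas13d libraries with targeting crRNAs (SD, n = 14 each), and the 5 highest entries made up 55.0% ± 2.57 in RfxCas13d libraries and 52.45% ± 2.71 in dRfxCas13d libraries. Among the targeting crRNAs, Map2 crRNA 3 gave the lowest sums with RfxCas13d, 625.5 and 525.

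**Figure D1:**
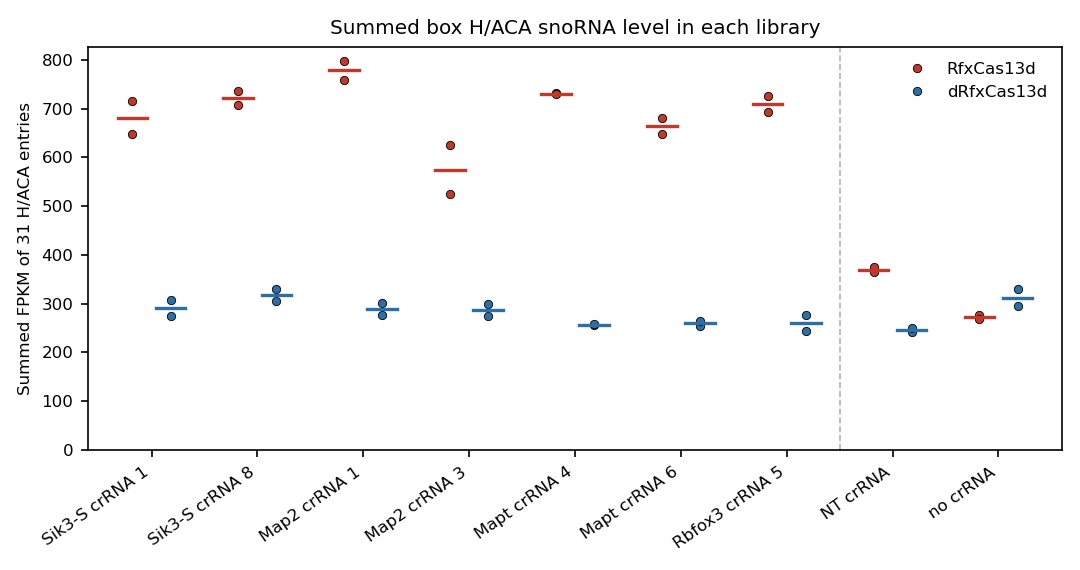
Summed FPKM of the 31 box H/ACA snoRNA entries (y axis, from 0) in each of the 36 libraries, by crRNA (x axis), with RfxCas13d in red and dRfxCas13d in blue; points are libraries, short lines are means of 2, and the dashed line parts the targeting crRNAs from NT crRNA and no crRNA. With targeting crRNAs the RfxCas13d libraries sit between 525 and 799 and the dRfxCas13d libraries between 243.6 and 330.4.

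Single entries were compared in 1 limma model of the log2(FPKM + 1) values of all 36 libraries, with Benjamini-Hochberg adjustment over the 13293 tested entries, and a call needed a fold of at least 2 with an adjusted p under 0.05. On this scale fold changes of entries with low FPKM are understated. Whether both libraries of a group came from separate transfections is not given in the labels, so that standard errors and p-values measure the spread between libraries, which may be technical. In the mean of the 7 targeting comparisons, 17 of the 31 H/ACA entries that passed the filter were called higher in RfxCas13d cells (54.8%) and 0 were called lower, beside 1.62% of all tested entries called higher and 0.737% called lower. Adjusted p was under 0.05 for 23 of the 31 (74.2%), beside 78.6% of all tested entries. The fold change was positive for 29 (93.5%), beside 50.6% of all tested entries. Their median log2 fold change was 1.13, against 0.0064 over all tested entries. The class was chosen with its earlier results known, so these counts describe it and do not test it.

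Snora78, the entry with the largest log2 fold change, had 14.1, 24.3 and 31.7 FPKM as the lowest, median and highest value in the 14 RfxCas13d libraries with targeting crRNAs, against 0.595, 1.52 and 5.87 FPKM in the 14 dRfxCas13d libraries. The groups did not overlap, and the log2 fold change was 3.24 ± 0.17 (SE, limma adjusted p = 5.56e-14), a ratio of mean FPKM of 13.2. A mean of 49.4 fragments per RfxCas13d library and 3.07 per dRfxCas13d library stood behind these values. Snora78 lies on the minus strand within an intron of Snhg9, which is itself antisense to the ribosomal protein gene Rps2 (chr17:24718116-24721929, plus strand), and whether the authors' counts used strand is not given in the sources used here. Snora78 overlapped no annotated Rps2 exon.

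Snora5c, in the gene Tbrg4 of a mitochondrial RNA regulator, had 12.03, 29.0 and 45.9 FPKM as lowest, median and highest value in RfxCas13d libraries, against 0, 4.445 and 7.85 FPKM in dRfxCas13d libraries. It was higher by 2.63 ± 0.23 on the log2 scale (SE, limma adjusted p = 2.65e-10). Snora52, in the gene of the ribosomal stalk protein Rplp2, had 10.6, 22.05 and 30.9 FPKM in RfxCas13d libraries and 1.67, 5.05 and 9.81 FPKM in dRfxCas13d libraries, again without overlap. Its log2 fold change was 2.04 ± 0.20 (SE, limma adjusted p = 2.82e-09).

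Snora70, in Rpl10, had 21.7, 42.2 and 59.4 FPKM as lowest, median and highest value with RfxCas13d, against 5.465, 11.04 and 17.2 FPKM with dRfxCas13d, and a log2 fold change of 1.92 ± 0.14 (SE, limma adjusted p = 1.91e-11). Snora7a, in Rpl32, had 41.8, 65.0 and 84.2 FPKM with RfxCas13d, against 9.46, 15.7 and 23.2 FPKM with dRfxCas13d, and a log2 fold change of 1.89 ± 0.12 (SE, limma adjusted p = 6.21e-13). Snora65, in Rpl12 and the most abundant of the class, had 146, 208 and 242 FPKM with RfxCas13d, against 58.8, 72.0 and 98.5 FPKM with dRfxCas13d. Its log2 fold change of 1.46 ± 0.070 (SE, limma adjusted p = 7.20e-15) was smaller than those above, with a smaller error.

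These 6 entries, Snora78, Snora5c, Snora52, Snora70, Snora7a and Snora65, were the ones called higher with each of the 7 targeting crRNAs, beside 0.406% of all tested entries, and 0 were called lower with each of the 7, beside 0.181%. The same 6 of 31 (19.4%) were those with all 14 RfxCas13d libraries above all 14 dRfxCas13d libraries, beside 11.8% of all tested entries. Within each of the 7 crRNAs, both RfxCas13d libraries lay above both dRfxCas13d libraries for 9 of 31 (29.0%), beside 17.9% of all tested entries. The shares without overlap thus stood much closer to those of all tested entries than the share called did. Without RfxCas13d+Map2 crRNA 3 replicate 1 the count called with all 7 was 3, and in fits restricted to the 4 libraries of each comparison it was 2.

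**Figure D2:**
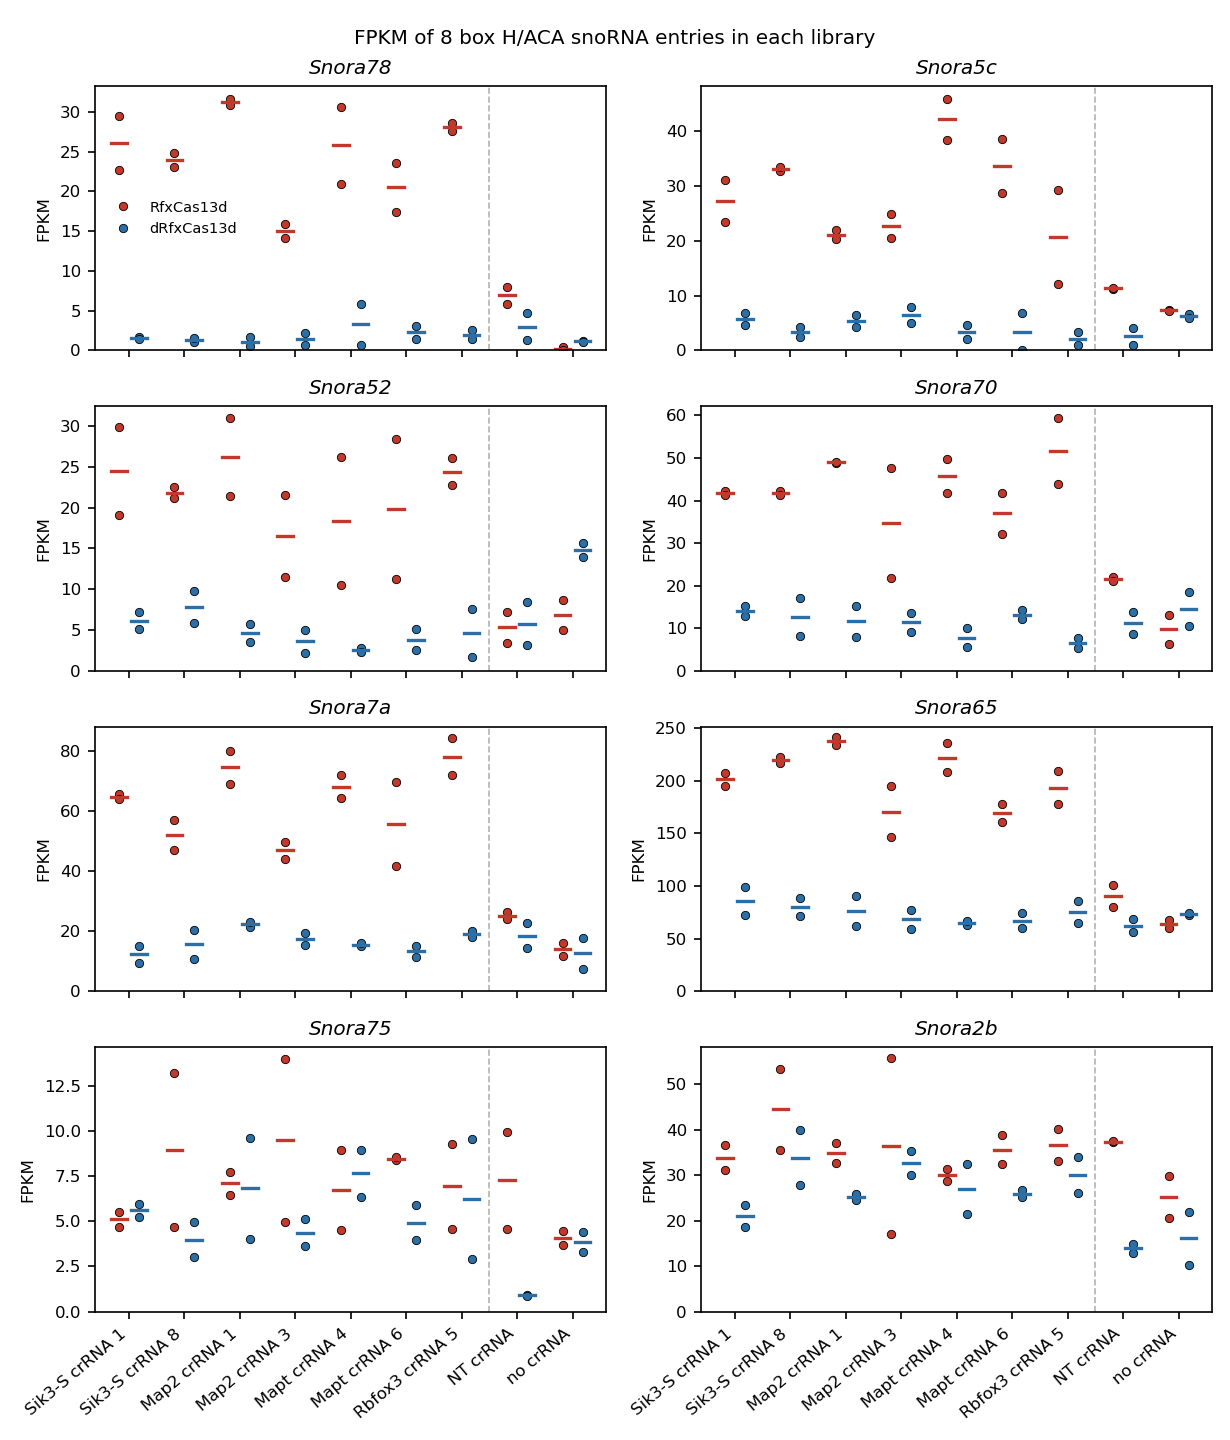
FPKM (y axes, from 0) of 8 H/ACA entries in each of the 36 libraries, by crRNA (x axis), with RfxCas13d in red and dRfxCas13d in blue; points are libraries and short lines are means of 2. The first 6 panels show the entries called with every targeting crRNA, in which the red points lie above the blue ones with all 7 targeting crRNAs; in the panels of Snora75 and Snora2b the points of the 2 nucleases mix with targeting crRNAs and part with NT crRNA.

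The other called entries overlapped between the nucleases in at least 1 library. Snora17 had 12.05, 21.5 and 36.5 FPKM as lowest, median and highest value in RfxCas13d libraries, against 3.815, 6.87 and 13.0 FPKM in dRfxCas13d libraries (log2 fold change 1.49 ± 0.17, SE). Snora61 had 8.80, 19.6 and 31.4 FPKM with RfxCas13d, against 0, 5.68 and 24.1 FPKM with dRfxCas13d (1.46 ± 0.22), and with Mapt crRNA 6 it reached its largest difference, 3.68. Snora68 had 21.1, 35.1 and 56.7 FPKM with RfxCas13d, against 5.72, 12.6 and 29.5 FPKM with dRfxCas13d (1.37 ± 0.15). These 3 entries rose in the mean over the crRNAs but passed the call with only some of them: Snora17 with 5, Snora61 with 3 and Snora68 with 5 of the 7.

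Snora16a had 1.34, 7.08 and 12.3 FPKM in RfxCas13d libraries, against 0, 1.96 and 5.08 FPKM in dRfxCas13d libraries (log2 fold change 1.44 ± 0.25, SE). Snora23, in the nuclear import receptor gene Ipo7, had 4.81, 8.76 and 14.5 FPKM with RfxCas13d, against 0, 3.15 and 6.68 FPKM with dRfxCas13d (1.44 ± 0.23). Snora62, in the ribosomal protein gene Rpsa, had 0, 4.82 and 7.78 FPKM with RfxCas13d, against 0, 0.7735 and 4.49 FPKM with dRfxCas13d (1.40 ± 0.26). The adjusted p of these 3 (limma) ran from 4.27e-06 to 3.90e-05, and at this level a library held few fragments, a mean of 7.93 for Snora62 with RfxCas13d and 1.71 with dRfxCas13d. The remaining called entries were Snora21, Snora41, Snora3, Snora64 and Snora30, with log2 fold changes of 1.03 to 1.31. Of these, Snora64 in the ribosomal protein gene Rps2 was the most abundant, with 22.6, 40.5 and 54.9 FPKM in RfxCas13d libraries, against 8.59, 16.8 and 34.4 FPKM in dRfxCas13d libraries.

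Of the 31 entries, 14 did not pass the call. Snora2b, the third by mean FPKM, had 17.1, 34.4 and 55.9 FPKM as lowest, median and highest value in RfxCas13d libraries, against 18.5, 26.4 and 39.8 FPKM in dRfxCas13d libraries, a log2 fold change of 0.35 ± 0.13 (SE, limma adjusted p = 0.0228). Snora43 had 3.23, 6.34 and 13.2 FPKM with RfxCas13d, against 2.65, 7.07 and 11.8 FPKM with dRfxCas13d, a log2 fold change of 0.02 ± 0.15 (SE, limma adjusted p = 0.905). Snora34, the entry with the lowest log2 fold change, had 1.16, 4.22 and 9.735 FPKM with RfxCas13d, against 0.781, 5.75 and 14.3 FPKM with dRfxCas13d, a log2 fold change of -0.25 ± 0.26 (SE, limma adjusted p = 0.385). Snora28 had 10.7, 17.5 and 23.2 FPKM with RfxCas13d, against 4.76, 13.0 and 23.9 FPKM with dRfxCas13d, a log2 fold change of 0.47 ± 0.18 (SE, limma adjusted p = 0.0236). The groups overlapped for all 4 of these entries. Snora44, Snora31 and Snora81 had adjusted p under 0.05 but missed the fold threshold, with log2 fold changes of 0.95, 0.93 and 0.74, and Snora75, Snora47, Snora74a and Snora69 had 0.36, 0.26, 0.44 and -0.10.

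The number called differed among the targeting crRNAs, with 0 called lower under any of them. With Sik3-S crRNA 1, 11 of 31 entries were called higher (1.79% of all tested entries, with 1.25% called lower), and with Sik3-S crRNA 8, 12 (1.86%, with 1.04% lower). With Map2 crRNA 1, 15 were called higher (2.26%, with 1.32% lower), and with Map2 crRNA 3, 9 (0.858%, with 0.572% lower). With Mapt crRNA 4, 15 were called higher (2.29%, with 0.903% lower), with Mapt crRNA 6, 12 (2.01%, with 0.933% lower), and with Rbfox3 crRNA 5, 12 (1.69%, with 1.35% lower). The median log2 fold change of the 31 ran from 0.74 with Map2 crRNA 3 to 1.33 with Rbfox3 crRNA 5. Over the 7 crRNAs, 22 of the 31 were called higher at least once, beside 4.72% of all tested entries, and 20 (64.5%) had a positive fold change with all 7, beside 29.8% of all tested entries. The other 9, among them Snora2b, Snora34, Snora43 and Snora75, were called with none. Both the 22 and the 12 with Sik3-S crRNA 8 include Snora47, which passed the filter only through RfxCas13d libraries. Its call with that crRNA rests on 3 and 2 fragments with RfxCas13d, against 0 and 0 with dRfxCas13d. The difference between crRNAs was not tested.

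**Figure D3:**
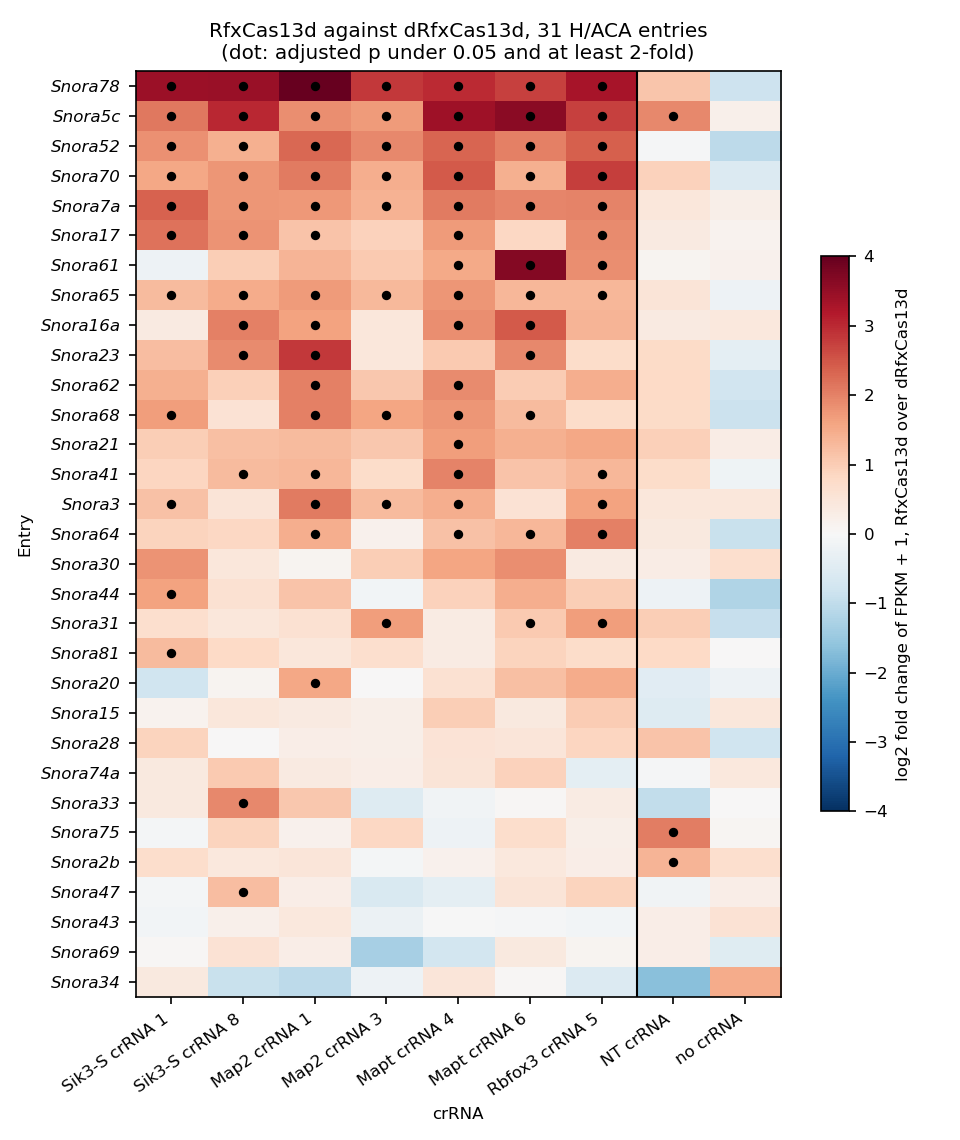
Log2 fold change of FPKM + 1, RfxCas13d over dRfxCas13d (colour, red higher and blue lower with RfxCas13d), of the 31 H/ACA entries (rows, ordered by the mean over the targeting crRNAs) with each crRNA condition (columns; the line parts targeting crRNAs from NT crRNA and no crRNA); dots mark calls. The top rows carry a dot with all 7 targeting crRNAs, 3 entries carry one with NT crRNA, and none without crRNA.

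Some entries that lie in the same host gene had unlike values and others like ones. In Snhg7, Snora17 was called with a log2 fold change of 1.49 whereas Snora43 was at 0.02, although their sequences are among the most alike of the class, while Snhg7 itself was at 0.50 ± 0.038 (SE). In Kansl2, Snora2b was at 0.35 and Snora34 at -0.25, with Kansl2 at 0.15 ± 0.028. In Snhg12, a long non-coding host gene with 3 entries, Snora61 was at 1.46, Snora16a at 1.44 and Snora44 at 0.95, with Snhg12 at 0.24 ± 0.025. These differences within hosts were not tested, and Snora44 had only a mean of 5.79 fragments in RfxCas13d libraries and 2.00 in dRfxCas13d libraries with targeting crRNAs.

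All of the 31 entries lie in the span of a host gene, 28 by GENCODE on the same strand and 3 (Snora17, Snora43 and Snora74a) by RefSeq spans alone, and the hosts are 27 genes. Of the hosts, 2 were called higher in the mean contrast and 0 lower, beside 1.62% and 0.737% of all tested entries. Rpl12 had 238 ± 27.2 FPKM in RfxCas13d libraries and 121 ± 24.0 FPKM in dRfxCas13d libraries (SD, n = 14 each). Rpl10 had 117 ± 9.63 FPKM in RfxCas13d libraries and 54.2 ± 4.41 FPKM in dRfxCas13d libraries. Their log2 fold changes were 1.00 ± 0.038 and 1.10 ± 0.041 (SE, limma adjusted p = 1.11e-16 and 6.72e-17). The median over the 27 hosts was 0.30, against 1.13 over the entries. Rpl32, the host of Snora7a, was at 0.34 ± 0.029 and Rplp2, the host of Snora52, at 0.42 ± 0.034. Further hosts were Rps2 of Snora64 at 0.80, Snhg4 of Snora74a at 0.46, Zbed3 of Snora47 at 0.036, Ipo7 of Snora23 at -0.018, Rpsa of Snora62 at -0.16 and Ncl of Snora75 at -0.41. The host of Snora78, Snhg9, was near the detection limit, with 0.946 ± 0.811 FPKM in RfxCas13d libraries and 0.555 ± 0.527 FPKM in dRfxCas13d libraries.

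The difference between entry and host was fitted within each library over the 420 tested entries of the table that lie within another on the same strand. Of the 28 H/ACA entries in this fit, 11 were called to rise more than their host and 0 less, beside 10.7% and 0.476% of the 420 entries, and 25 of the 28 differences were positive, with a median of 0.80. Snora78 exceeded Snhg9 by 2.94 ± 0.23 (SE, limma adjusted p = 1.82e-09), but Snhg9 was near the detection limit, where this scale understates its own change. Snora5c exceeded Tbrg4 by 2.12 ± 0.24 (adjusted p = 3.07e-07), Snora52 exceeded Rplp2 by 1.62 ± 0.21 (adjusted p = 3.41e-06) and Snora7a exceeded Rpl32 by 1.55 ± 0.13 (adjusted p = 2.66e-09). Snora70 and Snora65, whose hosts rose too, exceeded Rpl10 and Rpl12 by 0.82 ± 0.16 and 0.45 ± 0.079, under the fold threshold. Snora69 lay below its host Rpl39, a ribosomal protein gene at 0.89 ± 0.063, by -0.99 ± 0.34 (adjusted p = 0.0275), also under the threshold. The count of 11 was 6 among entries that averaged 5 FPKM or more, and 6 among those with a mean of at least 10 fragments, both of which are smaller sets.

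**Figure D4:**
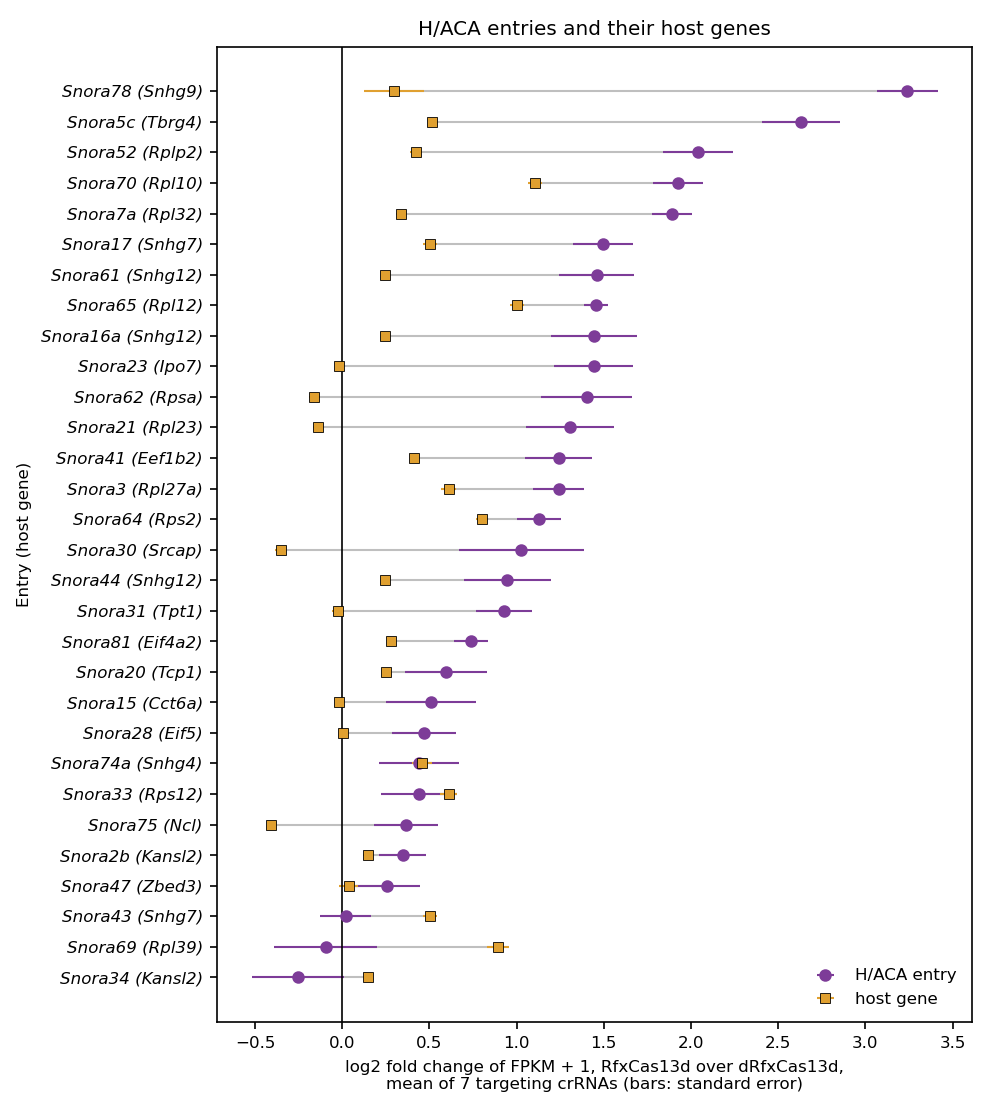
Log2 fold change of FPKM + 1, RfxCas13d over dRfxCas13d, mean of the 7 targeting crRNAs (x axis), for 30 of the 31 H/ACA entries (purple circles) and the host gene of each (yellow squares), with bars for the standard error; rows run from the largest change of an entry at the top to the lowest. Snora78 stands at 3.24 beside Snhg9 at 0.30, and in the lowest rows Snora69 and Snora34 stand left of their hosts.

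By kind of host, 9 of the 11 entries in ribosomal protein genes were called higher, with a median log2 fold change of 1.37. In long non-coding snoRNA host genes 4 of 7 entries were called (median 1.44), and in other protein-coding genes 4 of 13 (median 0.59). By position, 10 of the 17 entries that overlap an exon of some host transcript were called (median 1.24), and 6 of the 11 that are intronic in all transcripts (median 1.03). Of all tested entries 1.62% were called higher. These groups are small, and differences by kind of host or position were not tested. Entries in exons can take fragments of the host RNA, and entries in introns can take fragments of unspliced host RNA, so that mature snoRNA, precursor and host RNA cannot be told apart in these counts. In RNA from a population of cells, a change in the number of cells that hold an RNA and a change of its amount per cell cannot be told apart either. GC content ran from 43.2% to 64.1% (median 50.7%) in the 17 called entries and from 34.4% to 55.8% (median 41.9%) in the 14 others. Over the 31 entries Spearman's rho of the log2 fold change was 0.55 with GC content, 0.22 with the fold change of the host, 0.15 with length and 0.057 with the mean FPKM of the dRfxCas13d libraries. These are descriptions across entries that share libraries and hosts, and the part of base composition in the result was not tested.

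With NT crRNA, the control for the presence of a crRNA, 3 of the 31 entries were called higher in RfxCas13d cells and 0 lower, beside 0.196% and 0.376% of all tested entries. Of the 31 fold changes, 23 (74.2%) were positive, beside 49.8% of all tested entries, with a median of 0.45. Snora75 had 4.57 and 9.95 FPKM in RfxCas13d+NT crRNA libraries, against 0.903 and 0.884 FPKM in dRfxCas13d+NT crRNA libraries, a log2 fold change of 2.03 ± 0.49 (SE, limma adjusted p = 0.00406). Those 2 dRfxCas13d values stood for 1 fragment each, against 8 and 19 fragments with RfxCas13d. Snora5c had 11.2 and 11.4 FPKM in RfxCas13d+NT crRNA libraries, against 4.15 and 1.015 FPKM in dRfxCas13d+NT crRNA libraries, a log2 fold change of 1.92 ± 0.60 (SE, limma adjusted p = 0.0236). Here the dRfxCas13d values stood for 4 and 1 fragments, against 17 and 19 with RfxCas13d. Snora2b had 37.3 and 37.4 FPKM with RfxCas13d, against 15.0 and 12.8 FPKM with dRfxCas13d, a log2 fold change of 1.36 ± 0.36 (SE, limma adjusted p = 0.00778). For Snora75 both dRfxCas13d+NT crRNA libraries lay below the other dRfxCas13d libraries, which held 2.89 to 9.595 FPKM with targeting crRNAs and 3.29 and 4.395 FPKM without crRNA. For Snora2b they lay below the dRfxCas13d libraries with targeting crRNAs, at 18.5 to 39.8 FPKM, but above 1 of the 2 without crRNA, which held 10.2 and 22.0 FPKM.

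The library with liver transcripts belongs to this comparison. Without RfxCas13d+NT crRNA replicate 1 the count stayed at 3, with Snora75 at 2.52 (limma adjusted p = 0.00616) and Snora2b at 1.36 (adjusted p = 0.0448) still called, whereas Snora5c at 1.94 missed the threshold (adjusted p = 0.0922) and Snora81 at 1.09 passed it (adjusted p = 0.0216). Without RfxCas13d+NT crRNA replicate 2 the count was 1, as Snora75 at 1.55 (adjusted p = 0.0809) and Snora5c at 1.91 (adjusted p = 0.0962) lost the call. Without dRfxCas13d+NT crRNA replicate 2, Snora2b at 1.26 (adjusted p = 0.0622) and Snora5c at 1.25 (adjusted p = 0.258) lost it. Without dRfxCas13d+NT crRNA replicate 1 the count was 5, with Snora78 called higher and Snora15 called lower in addition. In a fit restricted to the 4 libraries of the comparison it was 1. An exact two-sided permutation test of 2 libraries against 2 cannot give a p below 0.333, so that calls in a single comparison rest on the spread that limma pools over groups and entries.

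Without crRNA, 0 of the 31 entries were called by limma, beside 0.0451% of all tested entries called higher and 0.128% called lower, and 4 (12.9%) had an unadjusted p under 0.05, beside 18.6% of all tested entries. The median log2 fold change was 0.013, with 17 positive (54.8%), beside 48.9% of all tested entries. Snora65 had 60.4 and 67.6 FPKM in RfxCas13d libraries, against 71.9 and 74.2 FPKM in dRfxCas13d libraries, and Snora78 had 0.473 and 0 FPKM with RfxCas13d, against 1.215 and 1.08 FPKM with dRfxCas13d. Snora52 had 4.98 and 8.63 FPKM with RfxCas13d, against 15.7 and 13.9 FPKM with dRfxCas13d, a log2 fold change of -1.06 ± 0.53 that did not pass (limma adjusted p = 0.293). Without RfxCas13d replicate 2, 1 entry was called lower.

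The effect of the nuclease with targeting crRNAs was compared directly with that under NT crRNA. By this interaction, 3 of the 31 entries were called with a larger effect under targeting crRNAs and 2 with a smaller one. The shares of all tested entries were 0.624% and 0.196%. The median difference was 0.73, with 24 positive (77.4%), beside 50.7% of all tested entries. Snora78 differed by 2.13 ± 0.49 (SE, limma adjusted p = 0.00215): it had 8.02 and 5.81 FPKM in RfxCas13d+NT crRNA libraries, against 4.67 and 1.31 FPKM in dRfxCas13d+NT crRNA libraries. Snora52 differed by 2.08 ± 0.57 (adjusted p = 0.00756), with 3.46 and 7.255 FPKM in RfxCas13d+NT crRNA libraries, against 3.13 and 8.415 FPKM in dRfxCas13d+NT crRNA libraries. Snora7a differed by 1.44 ± 0.33 (adjusted p = 0.00188), with 26.2 and 24.0 FPKM in RfxCas13d+NT crRNA libraries, against 22.7 and 14.3 FPKM in dRfxCas13d+NT crRNA libraries. For the last of these the call held without each of the 36 libraries in turn, with values of 1.13 to 1.76.

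Snora75 and Snora2b went the other way, with differences of -1.67 ± 0.52 (limma adjusted p = 0.0176) and -1.02 ± 0.38 (adjusted p = 0.0464). Their effect was larger with NT crRNA, where Snora75 had 1 fragment in each dRfxCas13d library. The call of Snora2b was lost in 22 of the 36 fits that left out 1 library, and that of Snora75 in 3. Of the entries that rose with targeting crRNAs, Snora52 lost the call without RfxCas13d+NT crRNA replicate 1 (1.64, adjusted p = 0.0878) or without dRfxCas13d+NT crRNA replicate 2 (1.49, adjusted p = 0.107), and Snora78 lost it without dRfxCas13d+NT crRNA replicate 1 (1.48, adjusted p = 0.0559). For Snora65, at 0.93 ± 0.20 (adjusted p = 0.00107), and Snora5c, at 0.71 ± 0.64 (adjusted p = 0.439), a difference of 2-fold between crRNAs was not called.

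Genes for proteins of the H/ACA particle were counted from a list of 18, all of them tested. Of these, 1 was called higher in the mean contrast and 0 lower, beside 1.62% and 0.737% of all tested entries. Adjusted p was under 0.05 for 9 with a positive and 4 with a negative fold change, beside 78.6% of all tested entries. Nop10, a core protein that binds dyskerin, had 147 to 227 FPKM (183 ± 23.0, SD, n = 14) in RfxCas13d libraries, against 42.0 to 60.7 FPKM (52.4 ± 4.59) in dRfxCas13d libraries, a log2 fold change of 1.79 ± 0.033 (SE, limma adjusted p = 6.79e-22). With NT crRNA its log2 fold change was 0.67, so that the effect with targeting crRNAs was larger by 1.12 (adjusted p = 2.05e-08). The other core proteins were at 0.0025 ± 0.027 for Dkc1, the pseudouridine synthase itself, 0.0042 ± 0.034 for Gar1 and 0.41 ± 0.022 for Nhp2. The remaining genes, for assembly (Naf1, Shq1, Ruvbl1, Ruvbl2, Nufip1, Pih1d1, Rpap3), end maturation (Parn, Tent4b, Pabpn1), the cap (Tgs1) and Cajal bodies (Wrap53, Nolc1, Coil), ran from -0.39 for Naf1 to 0.55 for Pabpn1.

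Other short RNA classes in the same table were read beside the H/ACA entries by count and median, without a test. Of 65 box C/D entries, whose RNAs guide methylation of ribose, 30 were called higher in the mean contrast and 0 lower, with a median log2 fold change of 0.94. Of 8 small Cajal body RNAs 1 was called higher (median 0.41), of 5 spliceosomal RNA entries 2 (median 0.96), and of 398 microRNA hairpin entries 16 higher and 5 lower (median 0.048). Over all 532 tested entries shorter than 300 nt, these classes included, 69 were called higher and 6 lower, with a median of 0.14. With NT crRNA, 6 of the 65 box C/D entries were called higher and 1 lower, and without crRNA 1 higher and 0 lower. The share called higher in the mean contrast was thus 54.8% of the H/ACA entries, 46.2% of the box C/D entries and 4.02% of the microRNA hairpin entries.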

How the data were processed

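RNA-seq of sorted N2a cells was analysed from the deposited table of 36 libraries, 2 for each of 18 groups taken from the sample labels. The authors filtered reads with FastQC and Trim Galore, used Subread for alignment to mm10 and featureCounts for counting, and deposited the counts converted to FPKM. The authors analysed differential expression with DESeq2. Not given in the sources used here were tool versions, the annotation, the strand setting and the handling of fragments that overlap several entries. The table holds no counts, so no count model was used.

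The FPKM of each library were divided by its median-of-ratios factor and analysed as log2(FPKM + 1). The test was limma 3.58.1 (R 4.3.3) with a mean for every group, a contrast for every comparison and moderated variances with an intensity trend. The filter, an FPKM of 1 or more in 2 or more libraries, left 13293 entries. Calls needed an adjusted p (Benjamini-Hochberg) under 0.05 and a fold of at least 2. The scripts were tested on simulated data. There, changes were placed only in entries above a floor of fragments and FPKM, so the lowest H/ACA entries were not covered. Library depth was estimated from the steps between low values of single-exon short entries. Of 1116 values of the H/ACA entries, 99.2% were whole fragments within 0.1, and 1 fragment was worth 0.305 to 1.89 FPKM. Fragment numbers describe depth and were not tested.

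Sequences and positions came from GENCODE vM21 (mm10), as did hosts on the same strand, with RefSeq spans where GENCODE gave none. The members and lists were chosen with earlier results of these data known. Values are given for the 12 largest called changes, the 5 entries with the highest mean FPKM, entries called with NT crRNA, without crRNA or in the interaction, 3 entries on either side of the filter, the hosts of these, and the genes of the H/ACA particle. Other entries named were chosen after their values were seen. Alternatives were pseudocounts of 0.5 and 0.1, no filter, a mean of 5 FPKM or more, FPKM as deposited, quantile normalization, a replicate block, a length trend removed, fits of 4 libraries, and leaving out each library. A mean of at least 10 fragments, and the alternatives for single entries with NT crRNA and in the interaction, were chosen after seeing the data. The values of 1 host gene are not reported here.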

Additional observations from a re-analysis of the deposited data

Results flagged for a closer look

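A difference of the nuclease effect between targeting and NT crRNA was called for 5 of the 31 entries by the limma interaction. It was higher for 3 and lower for 2, beside 0.624% and 0.196% of all tested entries. Adjusted p was under 0.05 for 6 of the 31, beside 4071 of the 13293 tested entries. The difference, on the log2 scale, was 2.13 for Snora78, 2.08 for Snora52 and 1.44 for Snora7a, which had the larger effect with targeting crRNAs. It was -1.02 for Snora2b and -1.67 for Snora75, which had the larger effect with NT crRNA. Only 2 libraries of each nuclease carry NT crRNA, and 1 of these libraries holds liver transcripts. Without that library the differences were 2.34 for Snora78, 1.64 for Snora52, 1.51 for Snora7a, -1.02 for Snora2b and -2.16 for Snora75. The calls of Snora52 and Snora2b were lost. Snora2b also lost its call without RfxCas13d+NT crRNA replicate 2, at -1.02, and its value barely moved in either fit.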

How the results depend on the processing

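Under the alternatives other than leaving out a library, 16 of the 17 entries called in the mean contrast kept the call wherever they were tested. Snora30 lost it with the length trend removed (0.90) and in some fits that left out a library, and Snora44 gained one with pseudocounts of 0.5 (1.22) and 0.1 (1.88). Among those named elsewhere, Snora5c with NT crRNA lost its call at a pseudocount of 0.1 and with 4 libraries, Snora75 with NT crRNA with 4 libraries, and Snora2b in the interaction without a filter and with the replicate block. The count of 17 among 31 entries ran from 12 to 18. The 12 were among the 17 entries with a mean of at least 10 fragments, and the 18 came with a pseudocount of 0.1 or 0.5. Entries that rose more than their host numbered 6 where a mean of 5 FPKM was required and 6 where a mean of 10 fragments was, against 11. Both limits left fewer entries to compare. In fits of only 4 libraries, not run for the mean contrast, the interaction or the hosts, 1 entry was called with NT crRNA and 2 with all 7 targeting crRNAs. Leaving out each library in turn gave 16 to 18 calls in the mean contrast, 3 to 6 with all 7 crRNAs, 1 to 5 with NT crRNA, 0 to 1 without crRNA, 2 to 7 in the interaction (2 without dRfxCas13d+NT crRNA replicate 2) and 10 to 12 against hosts. Where this left 1 library in a group, it was assumed to vary like the other groups. Snora69, which was not called, ran from -0.26 to 0.068 and changed sign in 3 of these fits, at 0.068 without RfxCas13d+Sik3-S crRNA 1 replicate 2, 0.028 without dRfxCas13d+Map2 crRNA 1 replicate 1 and 0.062 without dRfxCas13d+Rbfox3 crRNA 5 replicate 2. The cause was not tested. The length trend was not removed in the host comparison. Correlations of same-numbered deviations ran from -0.12 to 0.075, so these values showed no shared shift by replicate number. How the libraries were prepared cannot be read from this. Replicate 2 was the deeper library in every RfxCas13d group and in only some of the dRfxCas13d groups. With a replicate block the counts were 17 in the mean contrast, 6 with all 7 crRNAs, 4 with NT crRNA, 0 without crRNA, 4 in the interaction and 11 against hosts. Depth limits the low entries, since 14 of the 31 had a mean under 10 fragments per library.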
